A study of Mus musculus with 6 samples.

Results

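Intronic circular RNAs (circRNAs) are the rings that the deposited circRNA table places in an intron of an annotated gene. They were taken as every entry of that table whose class reads intron, which gave 470 of 10652 circRNAs (4.41%), beside 9524 exonic and 658 intergenic ones. The table covers hippocampal RNA of adult C57BL/6J males, 8 to 10 weeks old when obtained. Of 6 libraries, 3 came from mice given chronic unpredictable stress (CUS) for 4 weeks, which mixed stressors such as food and water deprivation, cold swimming, tail nipping and restraint. The other 3 came from Control mice. No transgene or gene deletion was named for either group. The series calls the 6 samples independent but does not say whether each is 1 mouse or a pool, so a p-value speaks only of the spread among these 6 libraries, part of which may be technical. As a check of the labelled tissue, the neuronal genes Grm5, Grin2b, Rims1, Rims2, Dlgap1, Magi2 and Cnksr2 each had circRNAs of some class above 0 in all 6 libraries, and Gabrb1 in 4.

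A ring of purely intronic sequence can form when the lariat released by splicing escapes debranching and keeps its branch-point bond. Such rings mostly stay in the nucleus, and some are known to associate with RNA polymerase II at their own host gene. A back-splice between unannotated splice sites inside an intron also yields a ring that is labelled intronic. The table does not tell these kinds apart. Poly(A) RNA was selected before sequencing, per the labels' protocols, and a ring has no tail of its own.

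Values below are levels, that is 10 to the deposited log10 value, with a deposited 0 kept at 0. In each library the levels are whole multiples of 1 smallest step, called the library's unit below. The sources used here do not say what a unit is, so the reads behind a value are unknown, and 0 means only that the table lists the circRNA at 0. The table was used without circRNA coordinates or sequences, so each position below is that of the whole host gene (build GRCm38). The inverse of the library's unit, called relative depth below, was 90.8% to 100% in Control and 81.9% to 89.8% in CUS. Whether it follows sequencing depth is unknown, as the unit is. The lowest level above 0 ran from 41.0 to 50.1 over the libraries.

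Intronic circRNAs were mostly seen in a single library. Of the 470, 349 (74.3%) were above 0 in 1 library, 72 in 2, 24 in 3, 12 in 4, 7 in 5 and 6 in all 6. Among exonic circRNAs 34.1% were above 0 in 1 library and 8.07% in all 6. Intergenic circRNAs lay between, at 50.2% and 4.41%. The 6 intronic circRNAs present in all 6 libraries carried 21.7% of the summed intronic level, and the 349 single-library ones carried 48.7%. For exonic circRNAs the corresponding shares were 38.0% and 13.2%.

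**Figure D1:**
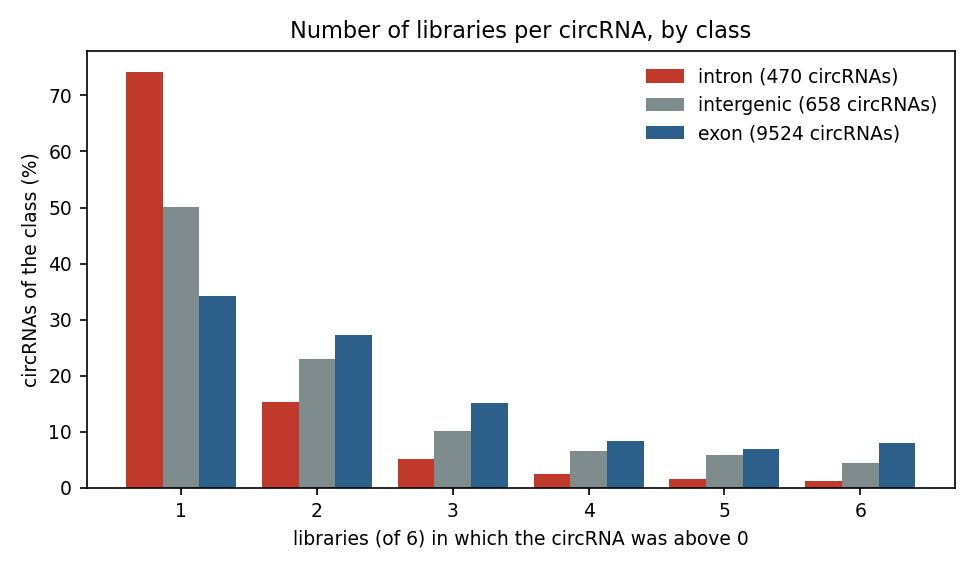
Share of circRNAs (y axis, %) by the number of libraries in which they were above 0 (x axis), with 1 bar per class. The intronic bar stands at 74.3% for 1 library, against 34.1% for exonic circRNAs, and at 1.28% for all 6 libraries against 8.07%.

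In each library 105 to 131 intronic circRNAs were above 0, and 47.3% to 58.1% of them were seen in that library alone. For exonic circRNAs the share seen in 1 library alone was 13.2% to 14.1%. An average of 17.6 percentage points separated the classes in the share of their circRNAs above 0 (22.3% to 27.9% of intronic and 38.5% to 44.4% of exonic ones), with intronic lower in 6 of 6 libraries. The exact sign-flip permutation test over the 6 libraries gave p = 0.031, the smallest it can give, and 0.0469 adjusted over 3 class comparisons (two-sided). This test asks whether the libraries share the difference, since all 6 measure the same circRNAs. Among circRNAs above 0 in 2 or more libraries the mean difference was -8.75 percentage points (exact sign-flip permutation p = 0.031).

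Pairs of libraries shared few intronic circRNAs. Of those above 0 in either library of a pair, 9.28% to 15.4% were above 0 in both over the 15 pairs. Exonic pairs shared 30.6% to 36.1%. The intronic median was 12.9% for 2 Control libraries, 12.4% for 2 CUS libraries and 12.2% for 1 of each.

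Single-library intronic circRNAs reached high levels, as did exonic ones. In the intronic circRNAs above 0 in 1 library, the level there had a median of 430, with quartiles of 264 and 573, beside 441, 292 and 569 in exonic single-library circRNAs. When circRNAs were sorted by their mean level over the libraries where they were above 0, 57.0% of 121 intronic circRNAs in the lowest band (up to 223) were in 1 library. In the highest band (above 511) 126 of 142 were, or 88.7%. Exonic values in the same bands were 21.3% and 49.4%. These bands favour single-library circRNAs at high levels, because a circRNA in several libraries is averaged. Single-library circRNAs of all classes also started at 34 units, whereas the highest value of those in 2 or 3 libraries went down to 18. The lowest levels therefore hold no single-library circRNAs.

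The highest single-library intronic circRNA was mmu_circRNA003642 of Trio, a guanine nucleotide exchange factor gene, at 1381 in CUS replicate 3 and 0 in the other 5 libraries. Those that followed were mmu_circRNA002016 of Tanc2, a postsynaptic scaffold gene, at 1320 in Control replicate 1, and mmu_circRNA004504 of Arid1b, a chromatin remodelling gene, at 1311 in Control replicate 3. mmu_circRNA002091 of Rbfox3, which encodes the neuronal splicing factor NeuN, was at 1197 in Control replicate 1. mmu_circRNA006035 of Stk39, a kinase gene, was at 1106 and mmu_circRNA009858 of Csmd1 at 1067, both in CUS replicate 1. These 6 are all of the 349 single-library intronic circRNAs that were above 1000, and they fell in 4 different libraries. Of 3251 exonic single-library circRNAs, 82 were above 1000, the highest at 2229.

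Levels above 0 were compared with exonic circRNAs within each library. The intronic median was 299, 363 and 322 over Control and 448, 301 and 351 over CUS (replicates 1 to 3, as in every such list below), against exonic medians of 297 to 345. The mean difference was 33.1, higher in 5 of 6 libraries (exact sign-flip permutation p = 0.156, two-sided, adjusted p = 0.156). Among circRNAs above 0 in 2 or more libraries the direction turned, with intronic medians lower by a mean difference of -37.3 (exact sign-flip permutation p = 0.031). The upper decile of intronic levels was 640 to 821, against 900 to 1005 for exonic ones, with a mean difference of -213 and a lower value in 6 of 6 libraries (exact sign-flip permutation p = 0.031, adjusted p = 0.0469). That difference was -17.1 with an exact sign-flip permutation p = 0.938 among circRNAs above 0 in 2 or more libraries.

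Over all 6 libraries the median mean level was 76.7 for intronic and 101 for exonic circRNAs. A mean above 300 was found for 17 intronic circRNAs (3.62%), against 14.9% of exonic ones. These means run over all 6 libraries, so they also reflect in how many libraries a circRNA was seen. At equal numbers of libraries, the intronic median was lower for 1 (71.7 against 73.5) to 4 libraries (200 against 220). It was higher for 5 (552 against 351) and 6 (1295 against 733), which held 7 and 6 intronic circRNAs. The highest 10 of 470 intronic circRNAs carried 26.5% of the summed intronic level. The highest 10 of 658 intergenic ones carried 15.5% of theirs, and the highest 10 of 9524 exonic ones 2.57%. A set of 10 is a larger part of a smaller class, so these shares do not compare the classes at a like fraction.

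The intronic circRNA of highest mean level belonged to Zfp532, a zinc finger gene at chromosome 18, 65579912 to 65689443. mmu_circRNA005215 was at 6656, 5653 and 3708 over Control and 5118, 3790 and 7880 over CUS. The groups overlapped, and the circRNA had rank 2 by mean level among all 10652. It made up 7.07% to 15.8% of the summed intronic level of a library. The other Zfp532 ring in every library, mmu_circRNA005211, was at 1782, 2201 and 2011 over Control and 796, 1495 and 788 over CUS. Every CUS library lay below every Control library, at 1027 ± 406 against 1998 ± 210 (SD, n = 3 each). In the comparison by limma given below, its adjusted p was 0.872. Of the 3896 circRNAs compared there, 10.9% had groups that did not overlap.

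Zfp532 had 8 intronic and 5 exonic circRNAs. The other 6 intronic ones were each above 0 in 1 library, 5 of them in Control replicate 1 (531, 261, 261, 126 and 126) and 1 in Control replicate 2 (419). The 2 at 261 had equal levels to the unit of the library, as did the 2 at 126, so each couple may share reads. Summed, the intronic rings were at 9741, 8273 and 5719 over Control and 5914, 5285 and 8668 over CUS, and the exonic rings at 3370, 2420 and 3450 over Control and 4911, 2956 and 1093 over CUS. The intronic part was 70.5% of the mean level of the host.

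Gm28039, a processed transcript gene at chromosome 5, 106557946 to 106696571, held 2 more intronic circRNAs found in all 6 libraries. mmu_circRNA008248 was at 1171, 2436 and 2003 over Control and 1851, 1216 and 2762 over CUS. mmu_circRNA008246 was at 876, 656 and 915 over Control and 339, 920 and 1457 over CUS. In both the groups overlapped. The gene shares its strand and part of its span with Zfp644, a zinc finger gene, so the 2 genes cannot be told apart over the shared span.

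The remaining circRNAs in all 6 libraries came from neuronal genes. mmu_circRNA008158 of Epha5, an ephrin receptor gene of axon guidance at chromosome 5, 84054761 to 84417382, was at 954, 1858 and 862 over Control and 1268, 1124 and 402 over CUS. mmu_circRNA001993 of Mapt, which encodes the microtubule protein tau (chromosome 11, 104231390 to 104332090), was at 922, 479 and 660 over Control and 578, 301 and 190 over CUS. The highest Mapt CUS library lay above the lowest Control library. The intronic ring made up 90.4% of the Mapt level, and its 2 exonic circRNAs summed to 104 in Control replicate 1, 228 in CUS replicate 3 and 0 in the other 4 libraries.

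**Figure D2:**
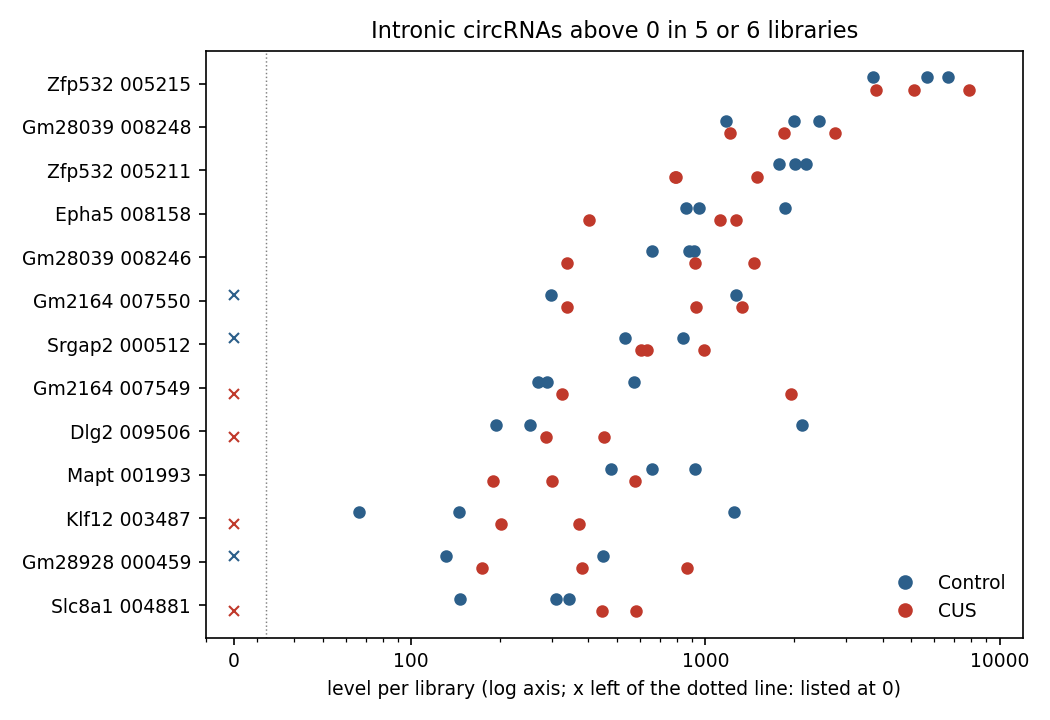
Level in each library (x axis, log scale, with libraries listed at 0 drawn left of the dotted line) of the 13 intronic circRNAs above 0 in 5 or 6 libraries, named by host and circRNA number. Control libraries are blue and CUS libraries red. Of these 13, only mmu_circRNA005211 of Zfp532 shows groups that do not overlap, at 1782 to 2201 against 788 to 1495. Of the 3896 circRNAs of all classes above 0 in at least 3 libraries, 10.9% had groups that did not overlap.

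Those above 0 in 5 libraries varied more widely. mmu_circRNA007550 of Gm2164, an antisense RNA gene, was at 0, 1273 and 298 over Control and 1333, 928 and 337 over CUS, and mmu_circRNA007549 of the same gene was at 270, 572 and 290 over Control and 324, 1958 and 0 over CUS. mmu_circRNA000512 of Srgap2, a GTPase-activating gene of dendritic spine growth, was at 531, 840 and 0 over Control and 991, 602 and 631 over CUS. mmu_circRNA009506 of Dlg2, which encodes the postsynaptic scaffold PSD-93, was at 254, 194 and 2128 over Control and 286, 0 and 451 over CUS. Each of these had 1 library far from the rest or at 0, and the groups overlapped in all 4.

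mmu_circRNA003487 of Klf12, a transcriptional repressor gene, was at 145, 1248 and 66.5 over Control and 0, 371 and 201 over CUS. mmu_circRNA004881 of the sodium-calcium exchanger gene Slc8a1 was at 311, 146 and 343 over Control and 581, 0 and 446 over CUS. mmu_circRNA000459 of the lincRNA gene Gm28928 was at 449, 131 and 0 over Control and 174, 379 and 867 over CUS. The protein-coding Gm21992 completed the 10 of highest mean with mmu_circRNA005344, above 0 in 4 libraries at 688, 676 and 0 over Control and 1869, 0 and 541 over CUS.

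The 468 intronic circRNAs with an assigned host came from 351 genes, of which 279 had 1 intronic circRNA, 51 had 2 and 21 had 3 or more. Cpe had the most, 16, ahead of Zfp532 with 8, Csmd1 with 7, and Nkain2 and Erc2 with 4 each. Cpe encodes carboxypeptidase E, the enzyme that trims neuropeptide precursors, and lies at chromosome 8, 64592542 to 64693054. No Cpe intronic circRNA was above 0 in more than 2 libraries: 9 were in 1 and 7 in 2. The number of Cpe rings above 0 was 2, 3 and 6 over Control and 9, 2 and 1 over CUS.

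Levels of single Cpe rings ran from 108 to 966. mmu_circRNA009999 and mmu_circRNA009998 were at 966 and 963 in Control replicate 1 and at 0 elsewhere, differing by 1 unit of the library, so they may share reads. The 5 rings mmu_circRNA010005 to mmu_circRNA010009 appeared together in Control replicate 3 (670, 495, 410, 197 and 285) and CUS replicate 1 (124, 221, 268, 239 and 336) and in no other library. Summed, intronic Cpe rings were at 1929, 1124 and 2910 over Control and 2783, 304 and 397 over CUS. All 6 libraries held intronic Cpe rings, and its 2 exonic circRNAs averaged 226 against 1574 for the intronic sum.

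**Figure D3:**
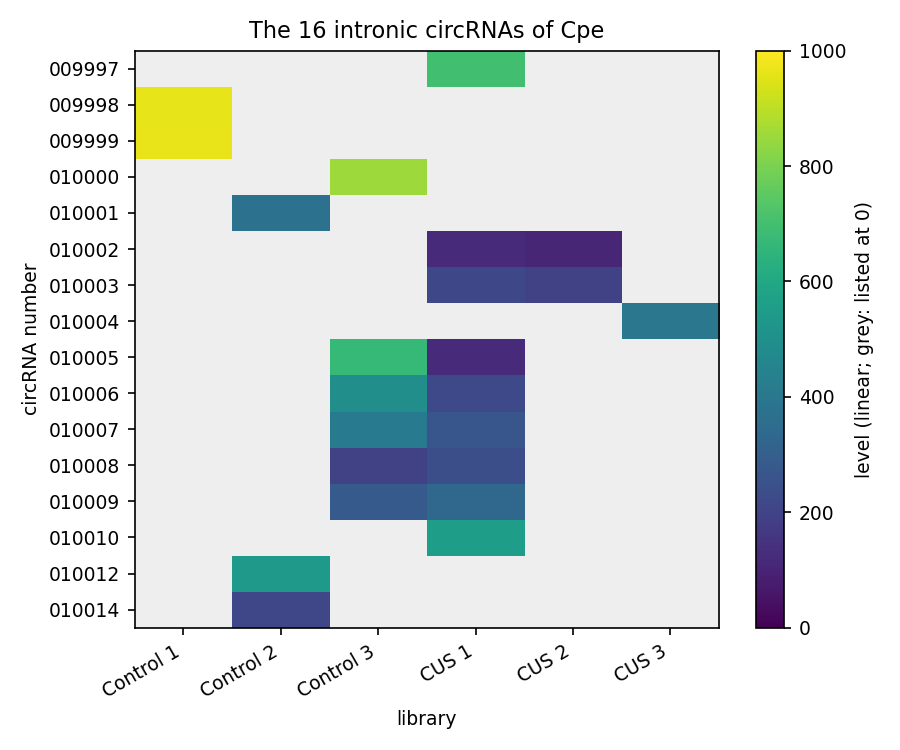
Level (colour, linear scale) of the 16 intronic circRNAs of Cpe (rows, by circRNA number) in the 6 libraries (columns), with grey for a circRNA listed at 0. No row is coloured in more than 2 libraries, and 9 rows are coloured in CUS replicate 1 against 1 in CUS replicate 3.

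Csmd1, a complement-control gene of 1643050 bases, had 2 intronic rings in several libraries. mmu_circRNA009855 was at 57.9, 330 and 0 over Control and 162, 188 and 0 over CUS, and mmu_circRNA009854 was at 67.6, 0 and 0 over Control and 150, 167 and 0 over CUS. Its other 5 were each in 1 library. Nkain2, which encodes a protein that interacts with the sodium pump, had 4 rings at 448 to 785, each in 1 library. Erc2, a presynaptic active zone gene, had 3 rings in 1 library each (415 to 693) and mmu_circRNA003240 in 3, at 77.3, 0 and 90.4 over Control and 0, 0 and 174 over CUS.

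Most intronic circRNAs came from genes that also yielded exonic ones. Of the 470, 344 (73.2%) shared a host identifier with an exonic circRNA, and 238 of 351 hosts (67.8%) did so. With exonic circRNAs above 0 in 2 or more libraries only, 197 hosts (56.1%) remained. In the 235 hosts with assigned circRNAs of both classes the intronic part had a median of 18.5% of the host's level (quartiles 7.58% and 40.4%), and in 40 of them it was larger than the exonic part. Besides Zfp532, Cpe and Mapt, the intronic part was larger in Srgap2 (67.4%), Klf12 (71.4%) and Dlg2 (57.5%).

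Breadth was also set beside the presence of an exonic partner. Of 344 intronic circRNAs with one, 73.5% were in 1 library and 11.3% in 3 or more, beside 76.2% and 7.94% of the 126 without. The exonic rings of the host were above 0 in 70.5% to 80.6% of cases where the intronic ring was above 0 in a library, and in 66.4% to 76.2% of cases where it was listed at 0. The first share was higher in the 3 Control libraries, by 12.3, 3.21 and 6.54 percentage points, and lower in the 3 CUS libraries, by -0.745, -3.10 and -0.921 points. This contrast between groups was not tested.

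Hosts with rings of both classes were long genes. Their median length was 232 kb with a median longest intron of 95.6 kb, against 70.2 kb and 23.8 kb in the 3413 annotated hosts with exonic rings only. The 116 hosts with intronic rings alone had medians of 53.7 kb and 23.4 kb. In 3 of these, Gm21992 among them, an exonic ring listed under several identifiers includes the host. Of the other 113, the 5 with the highest summed level were Gm2164 (1288, 3 rings), Gm26691 (299), Tmem151a (223), Gm26883 (220, 2 rings) and the mitochondrial carrier gene Slc25a42 (213). The Tmem151a ring was at 497 in Control replicate 1 and 840 in CUS replicate 3 only. Both Gm26883 rings were in Control replicate 3 alone, at 670 and 649.

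Noncoding genes hosted 31 of the 468 intronic circRNAs (6.62%), against 2.50% of exonic ones, and 12.2% of the summed intronic level. Gm28039 (summed mean level 2767) and Gm2164 (1288) led that level. Both overlap a protein-coding gene on the same strand, so part of it may not come from the noncoding gene. Of the 24 noncoding hosts, 17 overlapped a protein-coding gene on the opposite strand and 5 one on the same strand. Gm2164 lies opposite Pou3f1, a neural transcription factor gene, and shares its strand with 3100002H09Rik. Gm26691 lies opposite Cxxc4, a Wnt inhibitor gene, and Gm26883 opposite Tshz2. The library kit marked strand with dUTP, per the labels' protocols, but the sources used here do not say whether counting used it, so reads of such a gene and its antisense partner cannot be told apart.

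The hosts were then grouped by function, and the share with an intronic ring was set beside 9.31% over all 3772 hosts. In the postsynaptic list 16 of 49 hosts (32.7%) had one, with 26 intronic circRNAs led by the Dlg2 and Tanc2 rings and by mmu_circRNA009821 of Dlgap2 (394, 0 and 0 over Control and 327, 0 and 427 over CUS). In the adhesion and axon guidance list 22 of 83 (26.5%) did, with Epha5 first and mmu_circRNA004793 of the receptor phosphatase gene Ptprm next (237, 0 and 1186 over Control and 200, 172 and 0 over CUS). Kinase and phosphatase hosts followed with 19 of 102 (18.6%), presynaptic hosts with 6 of 37 (16.2%) and ion channel hosts with 9 of 66 (13.6%). Kinase and phosphatase rings were led by mmu_circRNA000185 of Map4k4, at 811 in Control replicate 1 and 298 in Control replicate 3, and by the Stk39 ring. The presynaptic list was led by mmu_circRNA002437 of the synaptotagmin gene Syt16 (193, 0 and 0 over Control and 1017, 296 and 0 over CUS), followed by mmu_circRNA003237 of Erc2, at 693 in CUS replicate 1 only. A further Syt16 ring, mmu_circRNA002439 (99.0, 0 and 0 over Control and 307, 215 and 0 over CUS), was above 0 in the same libraries as the first. The ion channel list was led by mmu_circRNA002738 of the ryanodine receptor gene Ryr2, at 304 in Control replicate 1 and 345 in CUS replicate 3.

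Small GTPase and cytoskeleton hosts (13 of 122, 10.7%) and zinc finger hosts (9 of 90, 10.0%) stood just above the 9.31% of all hosts. Below it were RNA binding and splicing hosts (6 of 67, 8.96%) and solute carriers (6 of 86, 6.98%). Chromatin and cohesin hosts (5 of 88, 5.68%) and ubiquitin enzymes (3 of 111, 2.70%) were lower still. After Zfp532 the zinc finger list held mmu_circRNA008475 of Zfp68, at 365, 214 and 0 over Control and 330, 506 and 0 over CUS. The RNA binding list held, beside Rbfox3, mmu_circRNA006439 of the splicing factor gene Rbm39, at 553, 0 and 253 over Control and 0, 0 and 307 over CUS. The small GTPase and cytoskeleton list was led by the Srgap2, Mapt and Trio rings, solute carriers by the Slc8a1 and Slc25a42 rings, and chromatin hosts by the Arid1b ring. The 6 ubiquitin rings, 3 of them from the cullin gene Cul5, were each in 1 library. Median host length was 333 kb in the postsynaptic and 523 kb in the adhesion list, 76.5 kb in the ubiquitin list and 74.1 kb over all hosts, and its part in these shares was not tested.

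**Figure D4:**
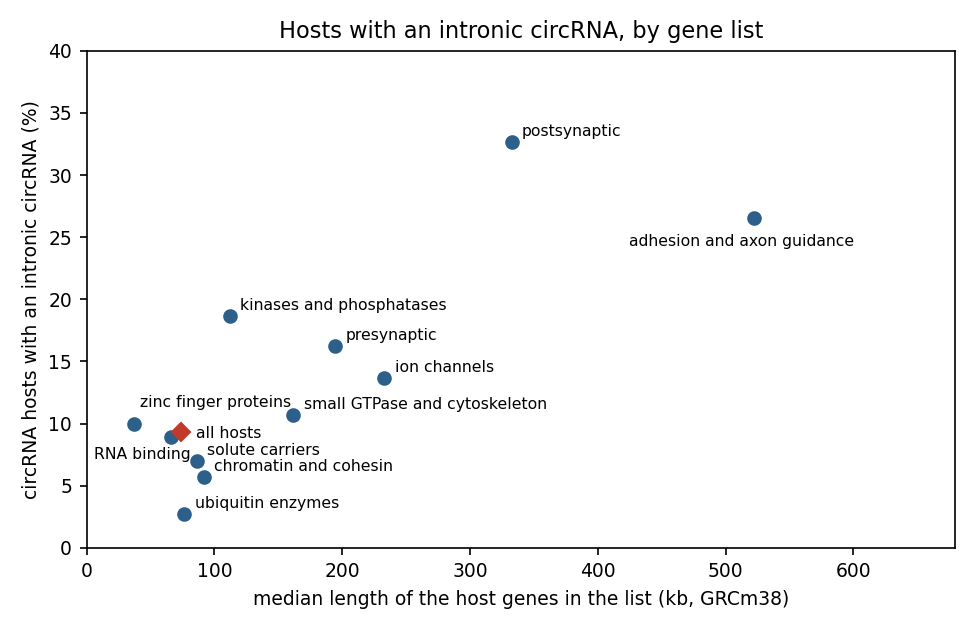
Share of circRNA hosts with an intronic circRNA (y axis, %) against the median length of the host genes (x axis, kb) for 11 gene lists with at least 30 hosts (blue points) and for all hosts (red diamond, 9.31% at 74.1 kb). Postsynaptic (32.7%) and adhesion (26.5%) hosts stand highest and have the longest genes; ubiquitin enzymes stand lowest, at 2.70%.

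Lists with few hosts held few intronic rings. GABA and monoamine genes had 3 of 11 hosts with one. The ring of the GABA-A receptor gene Gabrb2 was at 646 in CUS replicate 2, and that of Gabrb1 at 162 in Control replicate 1 and 351 in CUS replicate 3. Oligodendrocyte markers had 2 of 9 (Pde4b and Edil3), dentate granule 2 of 9 (Ahcyl2 and Sema5a), CA pyramidal 1 of 6 (Tenm3), interneuron 2 of 7 (Adarb2 and Erbb4) and glucocorticoid response genes 1 of 12. The 5 astrocyte, 2 microglial and 2 vascular or choroid hosts had no intronic ring. With 9.31% of all hosts having one, lists this small can hold none without differing from the rest. In bulk tissue, fewer cells of a type and less RNA per cell cannot be told apart.

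CUS was compared with Control to find intronic rings that differ with stress. Control libraries held 131, 105 and 113 above 0 and CUS libraries 119, 107 and 109, or 116 ± 13.3 against 112 ± 6.43 (SD, n = 3 each), with p = 0.7 in the exact two-sided permutation test, whose smallest possible p is 0.1. Their share of all circRNAs above 0 was 2.59% ± 0.263 in Control and 2.69% ± 0.257 in CUS (exact permutation p = 0.7). The summed level was 54104, 53181 and 52448 over Control and 59624, 45072 and 49837 over CUS (exact permutation p = 0.7), and its share of all levels 2.61% ± 0.0465 against 2.57% ± 0.385 (exact permutation p = 0.8). The median level above 0 was 328 ± 32.3 against 367 ± 74.7 (exact permutation p = 0.6). All 5 adjusted values were 0.8.

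Of the 470, 195 were above 0 in Control libraries only, 185 in CUS libraries only and 90 in both groups. The 349 above 0 in 1 library (74.3%, beside 36.9% of all circRNAs) fall in 1 group by construction. The same split was not made over all circRNAs, so nothing about stress is read from these counts. CUS replicate 1 had the highest summed level and median of the 6 libraries, and the lowest relative depth, 81.9%; its part in these results was not tested.

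Single circRNAs were compared with limma on log2(level + 45.5) across the 3896 circRNAs above 0 in at least 3 libraries, which kept 49 of 470 intronic ones (10.4%) and 38.5% of exonic ones. At an adjusted p under 0.05, 0 of the 3896 (0.0%) and 0 of the 49 were called, with 0.577 as the lowest limma adjusted p. Without adjustment, p under 0.05 was reached by 4 of the 49 (8.16%), and by 234 of the 3896 (6.01%). All 4 were above 0 in the 3 libraries of 1 group and in none of the other, so they entered the test only through the group where they were high, and nothing is read from their number. Without the filter it was 0 of 470, beside 171 of 10652. Of those 4, 1 was higher in CUS, where 2.75% of all tested were, and 3 were lower, where 3.26% were. The fitted CUS value was above Control for 25 of the 49 and below it for 24, a median log2 difference of 0.02, beside 1840 above, 2056 below and a median of -0.12 for all tested. Groups did not overlap in 6 of the 49 (12.2%), beside 10.9% of all tested: 2 were higher in CUS (5.78% of all tested) and 4 lower (5.08% of all tested).

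Among these, 3 were above 0 in every Control library and at 0 in every CUS one. Of all 3896 tested circRNAs, 94 had this pattern and 73 the reverse. CircRNAs of all classes above 0 numbered 4606, 4526 and 4329 over Control and 3991, 4238 and 4273 over CUS. The part of that difference in such patterns was not tested. mmu_circRNA009261 of Prmt1, an arginine methyltransferase gene, was at 191, 199 and 378 over Control. mmu_circRNA001720 of Wrap53, which encodes a Cajal body protein of telomerase assembly, was at 176, 134 and 141. mmu_circRNA007000 of Ppp3ca, which encodes the catalytic subunit of the phosphatase calcineurin, was at 379, 159 and 165. Prmt1 and Wrap53 had no exonic ring, while the 6 exonic rings of Ppp3ca averaged 2643 in sum. The reverse held for mmu_circRNA000169 of 2010300C02Rik, with 0 throughout Control, then 118, 250 and 250 over CUS. Its host had 18 exonic rings. These are the 4 that entered the test through 1 group only. Each had a limma adjusted p of 0.577, and no fold is given against a group at 0.

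The 2 others were present in both groups. The 6 circRNAs found in all libraries, mmu_circRNA005211 among them, had limma adjusted p from 0.872 to 0.977. mmu_circRNA005211 of Zfp532, described above, had a log2 difference of -0.99 with SE 0.57 (limma adjusted p = 0.872). mmu_circRNA004003 of Tmbim6, a regulator of cell death at the endoplasmic reticulum, was at 0, 202 and 0 over Control and 251, 269 and 402 over CUS, a log2 difference of 2.12 with SE 1.35 (limma adjusted p = 0.872).

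**Figure D5:**
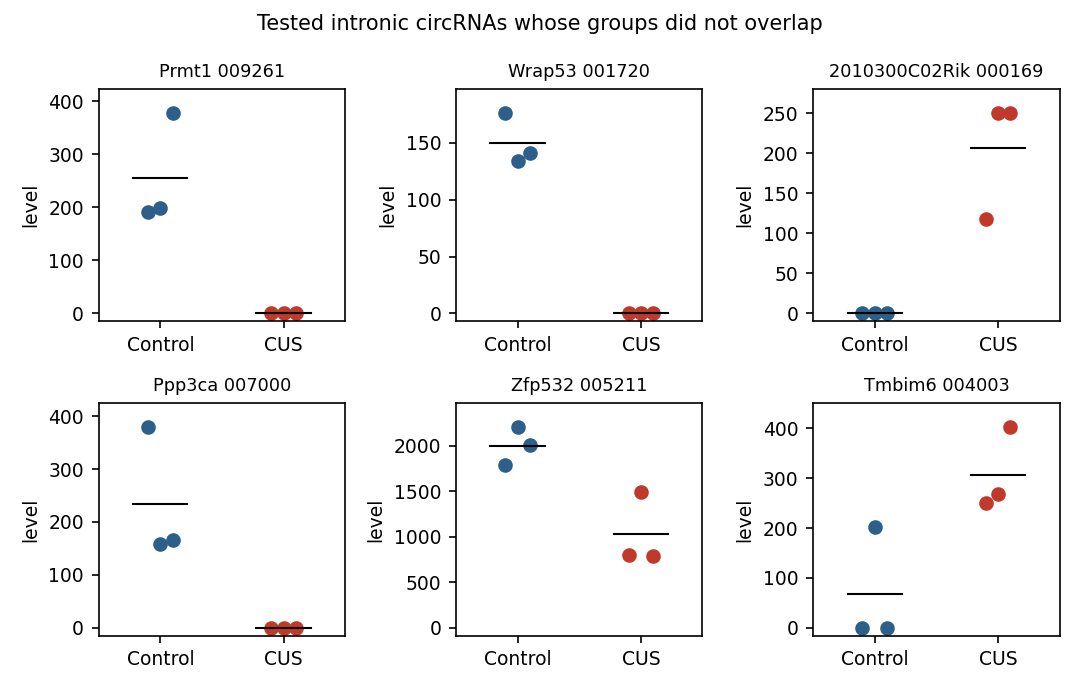
Level in each library (points, y axis from 0 with its own scale in each panel) and group mean (line) of the 6 tested intronic circRNAs whose Control (blue) and CUS (red) libraries did not overlap. In 4 panels all 3 libraries of a group are at 0; mmu_circRNA005211 of Zfp532 lies at 1782 to 2201 in Control and 788 to 1495 in CUS.

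The other circRNAs of smallest unadjusted p included, among higher ones, mmu_circRNA009603 of Galnt18, a glycosyltransferase gene, at 0, 0 and 311 over Control and 631, 307 and 552 over CUS, and the Gm2164 and Srgap2 rings given above. mmu_circRNA003570 of Fgf14, a modulator of sodium channels, was at 0, 287 and 0 over Control and 0, 678 and 883 over CUS. Among lower ones, mmu_circRNA005953 of the lincRNA gene Gm13483 was at 225, 0 and 242 over Control and 59.0, 0 and 0 over CUS. mmu_circRNA003034 of Pde8b, a cyclic AMP phosphodiesterase gene, was at 191, 209 and 335 over Control and 0, 0 and 209 over CUS. Each of these overlapped between groups and had a limma adjusted p of 0.872.

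In the lists, 0 tested members passed. The adhesion list had 5 tested circRNAs, 3 higher and 2 lower in CUS with a median log2 difference of 0.11, and the zinc finger list had 4, 3 higher and 1 lower with a median of 0.18. Among small GTPase and cytoskeleton hosts 4 were tested, of which 2 were higher and 2 lower (median 0.10). The kinase and phosphatase list had 2, both rings of Ppp3ca and both lower, with a median of -1.75. Of these, mmu_circRNA007000 entered the test only through Control, so nothing is read from that direction or median. The presynaptic list had 3, 2 higher and 1 lower, and both higher ones were the Syt16 rings, above 0 in the same libraries. Every other list had 2 or fewer. Summed postsynaptic intronic levels were 4128, 2183 and 3873 over Control and 1386, 1471 and 1813 over CUS, groups that did not overlap. However, 20 of the 26 rings were in 1 library and 2 were tested. The Tanc2 ring gave 1320 of the sum in Control replicate 1, and mmu_circRNA009506 of Dlg2 gave 2128 of that in Control replicate 3. In no other of the 20 lists did the group sums separate, so this list was picked by its values. Adhesion levels overlapped, at 2463, 4748 and 3649 over Control and 6554, 2362 and 4017 over CUS. Kinase and phosphatase levels were 3305, 1225 and 2660 over Control and 2659, 3098 and 185 over CUS, again overlapping. These sums were not tested.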

How the data were processed

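CircRNAs were measured by sequencing poly(A)-selected RNA from 3 CUS and 3 Control hippocampal libraries, grouped by the titles in the labels. The deposited table gives 1 value per circRNA and library on a log10 scale, per the values: in each library 100% of levels under 300 units lay within 0.05 of a whole multiple of 1 library-specific unit. The lowest level was 17 units. The sources used here do not name the circRNA caller. The submitters' processing notes list mm9, StringTie, DESeq and edgeR, with no role for any. A circRNA above 0 in 1 library had at least 34 units there, whereas for those above 0 in 2 or in 3 libraries the higher value went down to 18 units.

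Host identifiers were matched to GENCODE vM21 (4467 of 4483). Intronic circRNAs listed 1 host identifier in 463 cases and 2 in 7; 2 were left without an assigned host. CUS was compared with Control by limma 3.58.1 under R 4.3.3 (eBayes with a trend, Benjamini-Hochberg adjustment over all tested circRNAs). The pseudocount, 45.5, was the median of the 6 lowest levels above 0, and log2 differences understate the change of low circRNAs. Single values used exact permutation tests in Python 3.11.15 with scipy 1.17.1; figures used matplotlib 3.10.9. The members and the 20 gene lists were chosen with earlier results of these data known. Named circRNAs were the 10 of highest mean, those of Zfp532, those in all 6 libraries, the 6 higher and 6 lower of smallest p, the 5 hosts with most intronic circRNAs, the leading ones of each list, those in all libraries of 1 group and none of the other, and the 5 leading hosts without exonic circRNAs. Those in 5 libraries, the highest single-library ones and the Akt2 and Cadm2 circRNAs were chosen after their values were seen. The alternatives are listed in the closing section. Some named items are not reported here.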

Additional observations from a re-analysis of the deposited data

How the results depend on the processing

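The number of reads behind a level is unknown, so depth could not be turned into a limit, and 3 libraries a group cannot go below p = 0.1 in the exact permutation test. Limma called 0 circRNAs in every setting run, with the pseudocount at 0.2 or 5 times, without a filter, above 0 in all 6 libraries, without the trend, with quantile normalization, with the replicate block and without each library in turn. Intronic circRNAs at an unadjusted p under 0.05 numbered 4 of 49 in the main setting, 0 of 470 without a filter, 0 of 6 among those above 0 in all 6 libraries, and 0 to 1 of 34 to 41 without each library in turn. Over all tested circRNAs this number was 234 of 3896 in the main setting, 171 of 10652 without a filter, 32 of 804 among those above 0 in all 6 libraries, and 94 to 135 of 3086 to 3211 without each library in turn. When a library is left out, a circRNA found in 3 libraries including it leaves the test by construction. With the replicate block the number was 4, the same 4 circRNAs. Same-numbered libraries had correlations of -0.0109, -0.0252 and -0.0204 in their deviations from the group means. Differently numbered ones had -0.0087 to 0.0293. These values show no pairing by number, but they cannot exclude one, because each deviation is taken from a mean of only 3 libraries. Over same-numbered pairs the sign-flip test (smallest p 0.25) gave, for example, p = 0.5 for the difference of -4.67 in the number of intronic circRNAs above 0 (exact permutation).

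Differences between CUS and Control over all intronic circRNAs changed sign when a library was left out: -10.3 to 2.67 for the number above 0, -0.0536 to 0.221 percentage points for its share, -5790 to 1486 for the summed level, -0.254 to 0.127 points for the share of the level and -2.13 to 71.3 for the median level. The libraries whose removal turned the sign were Control replicate 1 for the number, Control replicate 2 and CUS replicate 1 for its share, CUS replicate 2 for the summed level and its share, and CUS replicate 1 for the median. The share of the level also turned to 0.0109 points among circRNAs above 0 in 2 or more libraries. Against exonic circRNAs, leaving out a library gave -18.5 to -16.8 points for the share above 0 and -240 to -193 for the upper decile, each with p = 0.0625 in the exact sign-flip permutation test, the smallest that 5 libraries allow. Among circRNAs above 0 in 2 or more libraries the share above 0 differed by -8.75 points, the upper decile by -17.1 and the median by -37.3, against 33.1 in the main setting. The cause was not tested.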

Other observations

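Some intronic circRNAs of 1 host had levels tied to each other. In 11 couples of 1 host, each with at least 1 intronic circRNA, the levels differed by at most 5 units of the library, and 6 couples were equal. Every couple was above 0 in 1 library only, so each match rests on 1 value. Of the 11, 6 joined an intronic and an exonic circRNA, as in Acsl3, where mmu_circRNA000329 equalled the exonic mmu_circRNA000330 and mmu_circRNA000331. The 3 intronic circRNAs of the kinase gene Akt2 were above 0 in Control replicates 1 and 2 only. mmu_circRNA009200 was at 165 and 177 units there, mmu_circRNA009202 at 105 and 111, and mmu_circRNA009199 at 60 and 66, so the first equalled the sum of the other two in both libraries. Of the 3 intronic circRNAs of the adhesion gene Cadm2, mmu_circRNA004359 and mmu_circRNA004358 were at 758 and 742 in Control replicate 3 and at 0 elsewhere.

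Below 60 units, single-library circRNAs mostly had an even number of library units. Of the 36 intronic ones in that range, 97.2% were even, as were 95.4% of the 280 single-library circRNAs of all classes. Of the 349 circRNAs of all classes above 0 in 2 libraries whose higher value was under 60 units, 53.6% had an even higher value.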
